A study of Bos taurus with 6 samples.

Results

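Genes of the inhibin, activin and follistatin system were followed in bovine granulosa cells exposed to FGF8. The 10 genes are the inhibin and activin subunits INHA, INHBA and INHBB, the secreted binding proteins FST and FSTL3, the type I receptors ACVR1B and BMPR1A, and the type II receptors ACVR2A, ACVR2B and BMPR2. All 10 genes were found by their symbol in the platform annotation, among 15216 genes named there, on 16 of the 43794 probes of the array. Granulosa cells of Holstein cattle from follicles of 2 to 6 mm had been cultured for 5 days, without serum, in the presence of FSH and insulin (each 10 ng/ml), which treated and control cells therefore share. Treated cells received FGF8 at 10 ng/ml for 2 h, and the untreated control cells are labelled 0 h, so FGF8 and the added time in culture cannot be told apart. There were 3 biological replicates, each hybridised on 2 two-colour arrays with the dyes swapped, 6 arrays in all. The sources used here do not say whether a replicate was an animal, a pool or a culture, so the p-values measure the spread between these 3 samples.

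Inhibins and activins are dimers built from shared subunits and are a classical secretory product of granulosa cells. An alpha subunit, from INHA, paired with a beta subunit, from INHBA or INHBB, makes inhibin, which lowers FSH secretion by the pituitary. A pair of beta subunits makes activin, which binds the type II receptors ACVR2A and ACVR2B, recruits the type I receptor ACVR1B and signals through SMAD2 and SMAD3. Follistatin, from FST, and the related protein from FSTL3 bind activin and keep it from its receptors. BMPR1A and BMPR2 are receptors of bone morphogenetic proteins, which signal through SMAD1, SMAD5 and SMAD9 and share the activin type II receptors.

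Every value called a ratio here is the authors' deposited log2 ratio of FGF8-treated over control RNA on 1 array, so 0 is no difference, 1 a doubling and -1 a halving. A replicate value is the mean of its 2 dye orientations, and a mean ± SD is over the 3 replicates. Spot intensities are the median foreground of a spot in scanner units, before any background correction. They serve here to show how far a probe lay above its detection limit, the 95th percentile of the negative control spots of that channel, which ran from 94 to 173.2 over channels and arrays. A probe was kept for testing when at least 4 arrays put the treated RNA, or at least 4 the control RNA, above this limit, as happened for all 10 genes and 14 of their 16 probes. The other 2 probes are given with no test.

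The cells' label was set against marker genes. Of 11 granulosa markers 9 had a kept probe; FSHR, the FSH receptor, CYP19A1, the aromatase, and AMH were above it in both RNAs on all 6 arrays, while FOXL2 and HSD17B1 did not pass. CYP17A1, which makes androgens in theca cells, was above the limit in 1 of 6 treated and 3 of 6 control readings, although 9 of 10 theca and stroma markers, 7 of 8 endothelial, 6 of 8 leukocyte and blood and 4 of 10 oocyte markers passed the filter. The granulosa markers together took 0.175 to 0.283% of the background-subtracted signal of treated RNA and 0.155 to 0.255% of that of control RNA. The theca and stroma markers took 0.0915 to 0.118% and 0.0847 to 0.11%, the endothelial markers 0.00151 to 0.00293% and 0.00193 to 0.00298%, the leukocyte and blood markers 0.00401 to 0.00619% and 0.00447 to 0.00896%, and the oocyte markers 0.000697 to 0.00135% and 0.00104 to 0.00174%. These ranges of treated and control RNA overlapped for each of the 5 lists. They pool arrays and dyes and leave out the pairing on each array. As paired ratios, the kept markers had medians of 0.025, -0.073, 0.078, -0.027 and -0.15 in the same order of lists. Over all genes the median was 0.0053. The part of other cell types in the results was not tested. In RNA of many cells, a different number of cells of a type and a different amount of transcript per cell cannot be told apart.

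No gene of the system passed the test over all probes: limma called 0 of the 10 members at an adjusted p under 0.05, as it called 0 of all 11190 genes (0%). Among all kept probes the smallest adjusted p in limma was 0.00648, for a probe that does not stand for any of these genes. The mean ratio was above 0 for 9 of the 10 members, BMPR1A being the exception, where 51% of all genes were above 0. Without ACVR2B, which the filter admitted through the treated RNA alone, it was above 0 for 8 of 9. The median of the 10 members was 0.26, with replicate medians of 0.34, 0.14 and 0.49. Over all genes the median was 0.0053, with replicate medians of -0.011, -0.00083 and 0.020. At an unadjusted p under 0.05, 3 members were higher in treated RNA (FST, ACVR1B and BMPR2), where 3.1% of all genes were, and 0 were lower, where 2.43% of all genes were. The smallest adjusted p of a member in limma was 0.856. The genes and lists were chosen with earlier results of these data known, so these counts are descriptions.

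**Figure D1:**
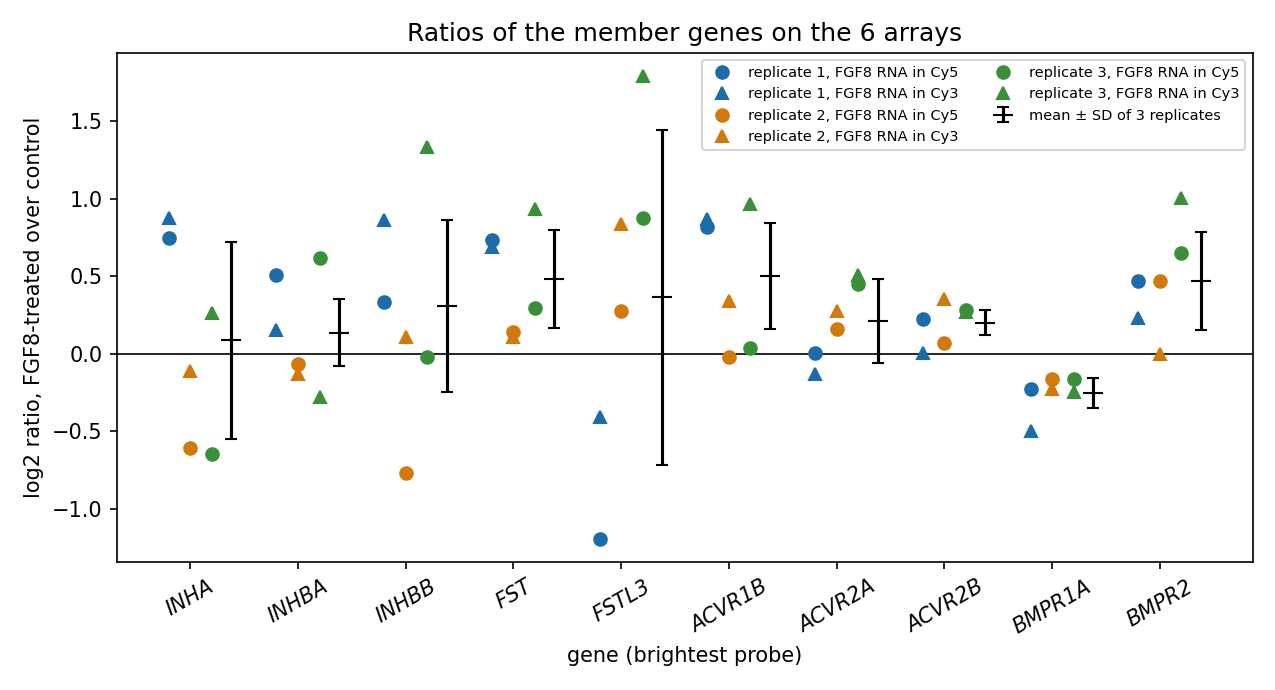
The log2 ratio of FGF8-treated over control RNA is plotted for the brightest probe of each of the 10 genes on the 6 arrays, coloured by replicate, with circles for FGF8 RNA in Cy5 and triangles for FGF8 RNA in Cy3, and with the mean ± SD of the 3 replicates in black. All 6 points lie above 0 for FST and ACVR2B and below 0 for BMPR1A, while those of FSTL3 run from -1.20 to 1.79.

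Among the subunits, INHA encodes the alpha subunit found in inhibin and not in activin. Its ratios with FGF8 RNA in Cy5 and then in Cy3 were 0.75 and 0.87 in replicate 1, -0.61 and -0.11 in replicate 2, and -0.65 and 0.26 in replicate 3. Replicate 1 was thus high on both arrays and replicate 2 low on both, while the arrays of replicate 3 differed in sign. The mean was 0.086 ± 0.63 (n = 3), with a 95% interval of -0.49 to 0.66 in limma (adjusted p = 0.964). Without replicate 1 the mean turned to -0.28. Its probe was bright, at 54.6 to 196 times the detection limit. Control RNA read 12187 and 13282 in replicate 1, 23634 and 18632 in replicate 2, and 11487 and 6496 in replicate 3. These raw readings mix dyes and are not scaled between arrays, so they cannot rank the replicates. The 9 kept granulosa markers had replicate medians of 0.40, 0.024 and -0.13, with single genes from -0.58 to 1.24, from -0.89 to 0.28 and from -1.08 to 0.62. Replicate 1 was the highest of the 3 for 5 of them (FSHR, CYP19A1, AMH, GJA1 and SERPINE2) and was not for AMHR2, NR5A1, NR5A2 and GATA4. The share of all genes with replicate 1 highest is not given here, so this count is a description only. The part of these markers in the value of INHA was not tested.

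INHBA, the beta A subunit of activin A and inhibin A, had a small mean ratio. With FGF8 RNA in Cy5 and in Cy3 its ratios were 0.51 and 0.15 in replicate 1, -0.066 and -0.13 in replicate 2, and 0.62 and -0.28 in replicate 3. Replicate 1 lay above 0 on both arrays, replicate 2 below 0 on both, and replicate 3 on either side. The mean of 0.13 ± 0.22 (n = 3) had a limma interval of -0.21 to 0.48 (adjusted p = 0.892). That interval measures the spread of the replicate ratios only. The mean was 0.036, 0.25 and 0.12 without replicates 1, 2 and 3. Its spots read 42348 to 59488 in treated and 32231 to 56752 in control RNA, near the scanner's top reading of 65535, which 0 readings of any member reached. How far this nearness bore on the ratios was not tested, so the interval does not bound the difference in transcript.

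The beta B subunit, INHBB, forms activin B and inhibin B and depended on the dyes. Its ratios with FGF8 RNA in Cy5 were 0.33, -0.77 and -0.018 in replicates 1 to 3, and with FGF8 RNA in Cy3 they were 0.86, 0.11 and 1.33. In each replicate the array with FGF8 RNA in Cy3 gave the higher ratio. The replicate values were 0.60, -0.33 and 0.66, and their mean was 0.31 ± 0.56 (n = 3), 1.24-fold higher in treated RNA (limma adjusted p = 0.858). Without replicates 1, 2 and 3 the mean was 0.16, 0.63 and 0.13, and the unadjusted p was under 0.05 without replicate 2 only. Averaged by orientation it stood at -0.15 with FGF8 RNA in Cy5 and at 0.77 with FGF8 RNA in Cy3.

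Ratios of members were also set against each other within a replicate. These are differences between treated over control ratios, not between transcript levels. INHA minus INHBA was 0.48, -0.26 and -0.36 on the log2 scale in the 3 replicates. The ratio of INHA was thus above that of INHBA in replicate 1 and below it in the others. INHBB minus INHBA was 0.27, -0.23 and 0.49. FST minus INHBA, the activin-binding protein set against the activin A subunit, was above 0 in all 3 replicates, at 0.38, 0.22 and 0.45 (mean 0.35 ± 0.12, n = 3). These pairs were chosen after the values were seen and were not tested.

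FST, which encodes follistatin, was higher in treated RNA on all 6 arrays, as 3.49% of all genes were. Its ratios with FGF8 RNA in Cy5 and in Cy3 were 0.73 and 0.69 in replicate 1, 0.14 and 0.11 in replicate 2, and 0.30 and 0.94 in replicate 3. The dye swaps were close to each other in replicates 1 and 2 and apart in replicate 3, and replicate 2 gave the lowest replicate value. Treated RNA was 1.4-fold higher on average (0.48 ± 0.31, n = 3; limma interval 0.098 to 0.87, adjusted p = 0.856). The mean was 0.37, 0.66 and 0.42 without replicates 1, 2 and 3, and the unadjusted p was under 0.05 only without replicate 2 among these 3 fits. Its spots read 2659 to 5627 in treated and 2273 to 3580 in control RNA, at 15.2 to 59.9 times the detection limit. These ranges overlapped, but they pool arrays and dyes and leave out the pairing on each array.

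FSTL3, whose protein also binds activin and is found both secreted and in the nucleus, had the widest spread among the 10 genes. With FGF8 RNA in Cy5 and in Cy3 its ratios were -1.20 and -0.41 in replicate 1, 0.28 and 0.83 in replicate 2, and 0.88 and 1.79 in replicate 3. Replicate 1 was low on both arrays and the other replicates high on both, with no overlap between replicate 1 and the rest. The replicate values of -0.80, 0.56 and 1.34 averaged 0.36 ± 1.08 (n = 3; limma adjusted p = 0.890). Without replicate 1 the mean was 0.95, with an unadjusted p under 0.05, and without replicate 3 it was -0.12. The ratio of FSTL3 minus that of FST was -1.51, 0.43 and 0.72 in the 3 replicates. The order of these 2 ratios, not of the transcript levels, was thus opposite in replicate 1 and in the other 2. The probe was bright throughout, with readings of 8147 to 39712 in treated and 7844 to 17243 in control RNA.

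ACVR1B, the type I receptor through which activin signals, had the highest mean of the 10 genes and the smallest p. Its ratios with FGF8 RNA in Cy5 and in Cy3 were 0.82 and 0.87 in replicate 1, -0.019 and 0.34 in replicate 2, and 0.037 and 0.97 in replicate 3. It was higher on 5 of 6 arrays and in all 3 replicate values. The latter held for 4 members (FST, ACVR1B, BMPR2 and ACVR2B) and 13.6% of all genes, although the filter admitted ACVR2B through the treated RNA alone. The mean of ACVR1B was 0.50 ± 0.34 (n = 3), 1.42-fold higher in treated RNA (limma interval 0.10 to 0.90, adjusted p = 0.856). The mean was 0.33, 0.68 and 0.50 without replicates 1, 2 and 3, and the unadjusted p stayed under 0.05 without replicates 2 and 3 but not without replicate 1. Pooled over arrays and dyes, without the pairing on each array, intensities of 999 to 2395 in treated and 701 to 1190 in control RNA overlapped.

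Over the 6 arrays, the profile of ACVR1B was nearest to those of UCHL1, FST and LMO2 among 11190 genes. Euclidean distances were 0.257, 0.434 and 0.461 on the log2 scale, against a median distance of 1.79 over all genes, and Pearson's r was 0.97, 0.91 and 0.90. The 6 arrays are 3 pairs of the same RNA, so these figures describe likeness only. UCHL1, a deubiquitinating enzyme, averaged 0.51 ± 0.32 (0.23 as the mean of its kept probes) and LMO2, a cofactor of transcription factors, 0.57 ± 0.36 (n = 3 each).

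The type II activin receptors gave small values. ACVR2A was read by 3 probes, of which the brightest had ratios of 0.0032 and -0.13 in replicate 1, 0.16 and 0.27 in replicate 2, and 0.45 and 0.51 in replicate 3, again with FGF8 RNA in Cy5 first. Its dye swaps were close in each replicate, while the replicates themselves were apart. The mean of this probe was 0.21 ± 0.27 (n = 3; limma interval -0.16 to 0.57, adjusted p = 0.858), and it was 0.35, 0.21 and 0.076 without replicates 1, 2 and 3. A second probe averaged 0.070 ± 0.24 and lay at 1.03 to 1.68 times the detection limit. The third averaged -0.0047 ± 0.55 and was above the limit in 4 of 6 treated and 2 of 6 control readings, so its ratios were formed at background.

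ACVR2B was higher on all 6 arrays, but at intensities around the detection limit. With FGF8 RNA in Cy5 and in Cy3 its ratios were 0.22 and 0.0058 in replicate 1, 0.070 and 0.36 in replicate 2, and 0.28 and 0.27 in replicate 3. The mean of 0.20 ± 0.081 (n = 3) had the smallest spread among the 10 genes (limma interval -0.11 to 0.51, adjusted p = 0.856). Its single probe read 107 to 180 in treated and 120 to 170 in control RNA, and was above the limit in 4 treated and 1 control readings of 6 each. It passed the filter through the treated RNA alone, and a probe admitted that way is more likely to be higher there, so its sign carries no weight in any count of members. Without it, 8 of 9 members had a mean above 0, 3 were higher in all 3 replicate values, and the median was 0.31.

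BMPR1A, a type I receptor for bone morphogenetic proteins, was the member that lay lower in treated RNA on all 6 arrays, as 2.51% of all genes did; 12.7% of all genes were lower in all 3 replicate values. Its brightest probe had ratios of -0.23 and -0.50 in replicate 1, -0.16 and -0.23 in replicate 2, and -0.17 and -0.24 in replicate 3. The arrays differed little, with FGF8 RNA in Cy3 giving the lower value in each replicate. The mean was -0.25 ± 0.095 (n = 3; limma interval -0.56 to 0.055, adjusted p = 0.856). Its other kept probe, at 3.96 to 8.04 times the detection limit, did not share the direction, with replicate values of 0.28, -0.22 and 0.17 and a mean of 0.076 ± 0.27. With the mean of both kept probes in place of the brightest, BMPR1A stood at -0.089. The third probe, above the limit in 1 treated and 3 control readings of 6 each and therefore untested, averaged -0.070.

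BMPR2, the type II receptor for bone morphogenetic proteins, also differed between its probes. Its brightest probe had ratios of 0.47 and 0.23 in replicate 1, 0.47 and -0.0043 in replicate 2, and 0.65 and 1.01 in replicate 3. Replicate 3 was the highest on both arrays, and 5 of 6 arrays were above 0. The mean was 0.47 ± 0.32 (n = 3), 1.39-fold higher in treated RNA (limma interval 0.084 to 0.86, adjusted p = 0.856). It was 0.53, 0.59 and 0.29 without replicates 1, 2 and 3, and the unadjusted p was no longer under 0.05 without replicate 3. Pooled over arrays and dyes, without the pairing on each array, treated readings of 457 to 838 and control readings of 374 to 467 overlapped at their edges. A second probe, at 2.35 to 4.35 times the limit against 2.47 to 8.91 times for the brightest, averaged 0.083 ± 0.22 (limma adjusted p = 0.938). The mean of both kept probes was 0.28 and no longer had an unadjusted p under 0.05. The third probe was above the limit in 2 treated and 2 control readings of 6 each and averaged -0.081, with no test. Of the 3 members with more than 1 kept probe, 2 (ACVR2A and BMPR1A) had probes of opposite sign, ACVR2A by a value of -0.0047 only, against 52.3% of all genes with more than 1 kept probe.

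**Figure D2:**
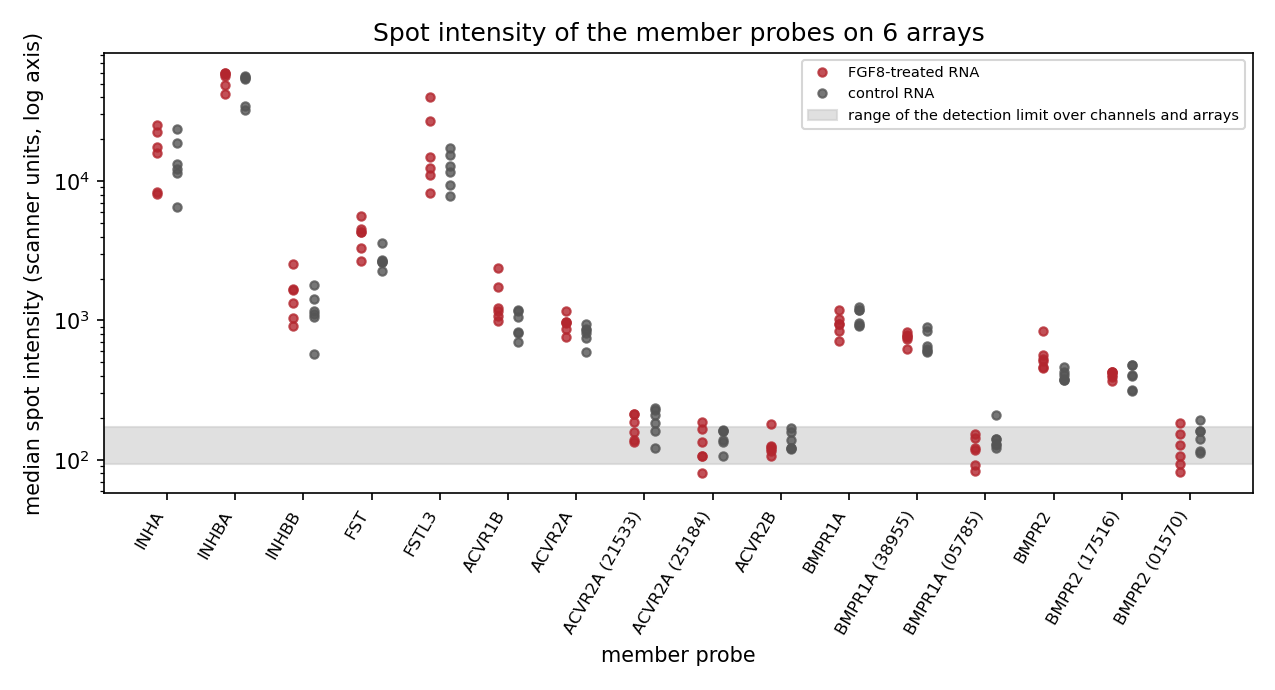
Median spot intensity in scanner units on a log axis is plotted for all 16 probes, with 6 readings each of FGF8-treated RNA in red and control RNA in grey, and the range of the detection limit as a band. Readings of a probe mix both dyes. INHA, INHBA and FSTL3 lie far above the band, whereas ACVR2B and the dimmest probes of ACVR2A, BMPR1A and BMPR2 lie within or near it.

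Several members gave different ratios with the dyes exchanged. Over the 14 kept probes, limma called a dye effect for 2, INHBB and FSTL3, where 8.24% of all kept probes were called. The Cy5 over Cy3 ratio with the treatment averaged out was -0.46 ± 0.21 for INHBB (n = 3, limma adjusted p = 0.00798). For FSTL3 it was -0.38 ± 0.090 (n = 3, limma adjusted p = 0.0195). Both thus leaned toward Cy3, and in each replicate the array with FGF8 RNA in Cy3 gave the higher ratio. The ratio of a single array holds treatment and dye together. With FGF8 RNA in Cy5, INHBB could thus stand at 0.33 in replicate 1 and FSTL3 at 0.88 in replicate 3. FSTL3 accordingly averaged -0.012 with FGF8 RNA in Cy5 and 0.74 with FGF8 RNA in Cy3. For INHA the orientations averaged -0.17 and 0.34, and for INHBA 0.35 and -0.085, with dye effects of -0.26 (limma adjusted p = 0.129) and 0.22 (0.198). The orientations of FST (0.39 and 0.58), ACVR1B (0.28 and 0.73), ACVR2A (0.20 and 0.22), ACVR2B (0.19 and 0.21), BMPR2 (0.53 and 0.41) and BMPR1A (-0.18 and -0.32) had the same sign. The sign of ACVR2B, which the filter admitted through the treated RNA alone, carries no weight. The share of all genes with the same sign in both orientations is not given here, so this is a description only. The swapped design removes a dye effect like that of INHBB and FSTL3 from the replicate values.

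**Figure D3:**
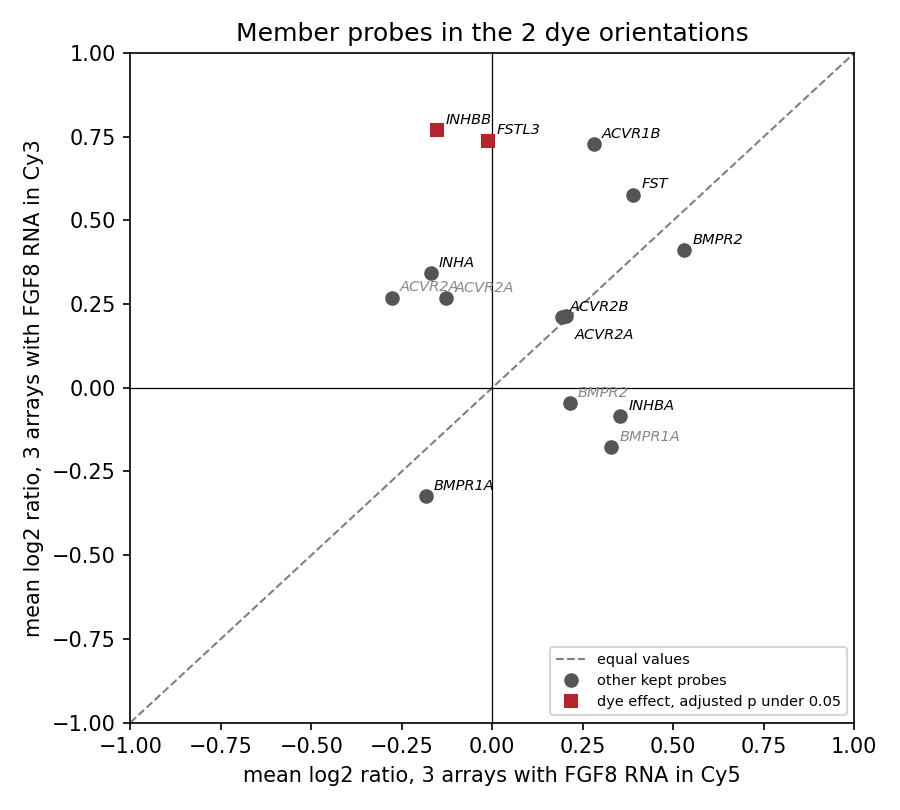
The mean log2 ratio over the 3 arrays with FGF8 RNA in Cy5 is plotted against that over the 3 arrays with FGF8 RNA in Cy3 for the 14 kept probes, with the brightest probe of a gene named in black and other probes in grey. INHBB at -0.15 and 0.77 and FSTL3 at -0.012 and 0.74 lie far above the dashed line of equal values.

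The swapped arrays of a replicate were also compared gene by gene. In replicate 1, 9 of the 10 members had the same sign on both arrays, where 65.5% of all genes did. In replicate 2 it was 7 of 10 (49.1% of all genes) and in replicate 3 it was 7 of 10 (61.1%). ACVR2B, whose sign carries no weight, is in each of these counts. Members higher by their replicate value numbered 7 in replicate 1, 6 in replicate 2 and 8 in replicate 3, where 48.7, 49.8 and 52.2% of all genes were. Without ACVR2B, which the filter admitted through the treated RNA, they numbered 6, 5 and 7 of 9. The median gap between the swapped arrays of a replicate was 0.23, 0.32 and 0.77 over the members, against 0.27, 0.28 and 0.33 over all genes. Over all kept probes the swapped arrays correlated at 0.474, -0.107 and 0.450 in the 3 replicates, a correlation across probes, which are not independent replicates. The median SD of a member was 0.32, against 0.25 over all genes.

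Around these 10 genes, 84 other genes of the pathway were read from 6 lists, and 50 of them had a kept probe. Over the 50 genes 0 were higher and 0 were lower at an adjusted p under 0.05 in limma, their median was 0.051, and at an unadjusted p under 0.05 there were 4 higher (BMP2, BAMBI, SKIL and ID2), where 3.1% of all genes were, and 2 lower (NBL1 and ID3), where 2.43% were.

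Among related ligands 10 of 17 were kept, with a median of -0.013. BMP2, a bone morphogenetic protein that acts through BMPR1A, had replicate values of 0.33, 1.10 and 0.54 and was higher on all 6 arrays (0.66 ± 0.40, n = 3; limma adjusted p = 0.856). MSTN, myostatin, which uses the type II activin receptors, averaged 0.28 ± 0.38. Of the related receptors and coreceptors 9 of 14 were kept, with a median of 0.099 and none past an unadjusted p of 0.05. TGFBR2 averaged 0.26 ± 0.096, although its 2 probes ran from -0.17 to 0.26, and BMPR1B, a type I receptor of bone morphogenetic proteins, averaged 0.21 ± 0.18 with 0.17 to 0.23 over its 3 probes.

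Binding proteins and inhibitors went both ways, with 9 of 15 kept and a median of 0.028. BAMBI, a decoy receptor that resembles type I receptors but lacks their kinase, was the highest of all the related genes, with replicate values of 1.95, 1.19 and 1.32 (1.49 ± 0.41, n = 3; 2.8-fold; limma adjusted p = 0.385). With all 6 arrays fitted and the replicate as a random block, BAMBI was called by limma (adjusted p = 0.00183), while 0 of the 10 members were. That fit draws its error from arrays, not from the 3 replicates, on which BAMBI was not called. NBL1, a secreted antagonist of bone morphogenetic proteins, was lower on all 6 arrays, at -0.88, -0.32 and -0.36 in the 3 replicates (-0.52 ± 0.31, n = 3; limma adjusted p = 0.856). Of the proteases that mature these precursors 3 of 6 were kept, with a median of -0.068; PCSK7 averaged 0.45 ± 0.78, with 1.34 in replicate 3, and BMP1 averaged -0.19 ± 0.13, with a dye effect of -0.58 (limma adjusted p = 0.00172).

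SMADs and their regulators had 14 of 19 genes kept and a median of 0.067. SMAD2, which carries the activin signal, had replicate values of 0.78, -0.067 and 0.19, and SMAD3 0.28, -0.088 and -0.023; both were chosen for their role. SKIL, a repressor of SMAD proteins, averaged 0.58 ± 0.21 (n = 3; limma adjusted p = 0.856), with 0.99 on the arrays with FGF8 RNA in Cy5 and 0.17 with FGF8 RNA in Cy3 (dye effect 0.41, limma adjusted p = 0.0142). FKBP1A, which binds the type I receptors, averaged -0.52 ± 0.72, with 0.26 in replicate 2 and 0.050 for its other probe. Genes responsive to activin and bone morphogenetic proteins had 6 of 15 members kept and a median of 0.064. ID3, an inhibitor of transcription factors that bone morphogenetic proteins switch on, averaged -0.70 ± 0.24 (-0.39 as the mean of its 5 probes), and its relative ID2 0.52 ± 0.46 (n = 3 each; limma adjusted p = 0.856 for both).

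**Figure D4:**
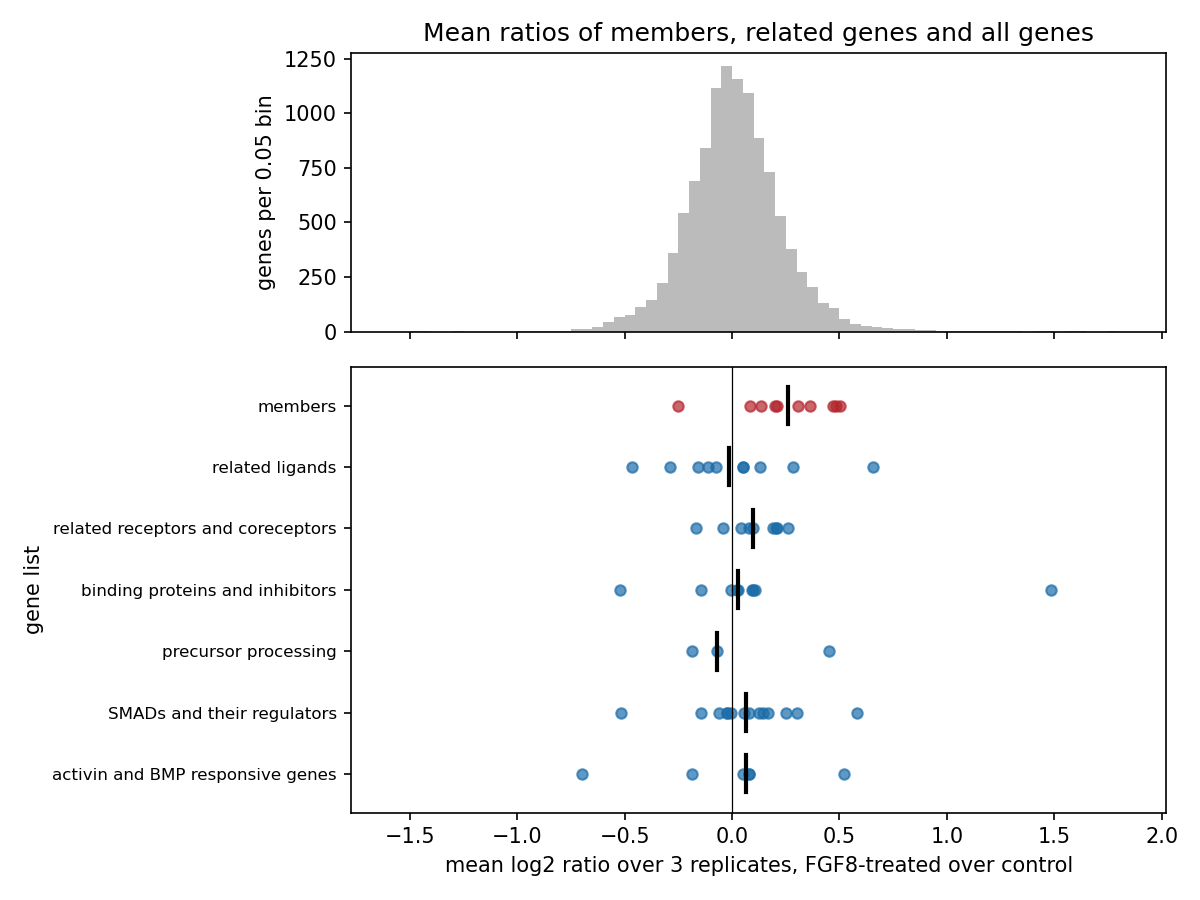
The upper panel counts all 11190 genes by mean log2 ratio of FGF8-treated over control RNA, and the lower panel places the 10 members in red and the genes of 6 related lists in blue on the same axis, with each list's median as a bar. The members' median lies at 0.26 and the medians of the related lists between -0.068 and 0.099.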

How the data were processed

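RNA of treated and control cells was amplified in 2 rounds and coupled to Cy3 or Cy5, per the labels' protocols. Intensity values are, per the file headers, foreground and local background per spot, not background-corrected. The deposited values are log2 ratios; set against each array's scanner channels and dyes they matched treated over control RNA after subtraction of the median background and loess (r = 1.00, slope 1.00 on each of the 6 arrays), with medians of 0.0025, 0.0030, 0.0018, -0.00085, 0.0063 and 0.0067. No source used here names other steps by the authors.

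The deposited ratios of the 2 swapped arrays were averaged per replicate; a two-sided test against 0 followed, in limma 3.58.1 (lmFit, eBayes) under R 4.3.3, over all 27210 kept probes, with Benjamini-Hochberg adjustment. A probe was kept when above the 95th percentile of the 153 negative control spots in treated or in control RNA on at least 4 arrays, and not among 143 marked as ignored. Symbols are those of the platform annotation (1 symbol for 21790 probes, none for 22004), updated through RefSeq names: 20025 were current, 1524 updated and 241 unmatched. Each gene stands by its brightest kept probe. Members and lists were chosen with earlier results known. From each related list the 2 genes with the smallest p are named, and the 3 genes nearest in profile to the member with the smallest p; SMAD2, SMAD3 and the markers named were added afterwards. Treated and control RNA share an array, so the replicate numbers pair them. In separate channels their deviations from the group means correlated at 0.107, 0.404 and 0.386 within numbers. Between numbers the correlations ran from -0.354 to 0.126, the highest being treated RNA 1 with control RNA 2, above the 0.107 within number 1. Channels of a number share arrays, so these figures cannot show that the cells were paired. Alternatives covered the ratios, scaling, filter, variance model, dyes, blocks, probes and replicates. The number of replicates, 3, limits the precision, as the 2 arrays of a replicate read the same RNA.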

Additional observations from a re-analysis of the deposited data

Results flagged for a closer look

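INHBB and FSTL3 gave different ratios in the 2 dye orientations, by limma's test of the Cy5 over Cy3 ratio. The mean of INHBB was -0.46 in Cy5 over Cy3, and that of FSTL3 -0.38. Dye effects were called for 2242 of 27210 kept probes. Without replicate 1 the count for the system was 1 and without replicate 3 it was 0.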

How the results depend on the processing

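Over 17 alternatives, limma called 0 of the 10 members in each, and the members' median stayed between 0.15 and 0.38. FST, ACVR1B, ACVR2A and BMPR2 kept a mean above 0 and BMPR1A one below 0 in all 17. ACVR2B was lost where both RNAs had to be above the limit on all 6 arrays. The count at an unadjusted p under 0.05, 3 originally, was 1 on the arrays with FGF8 RNA in Cy5 and 1 without moderation of the variance. It ran from 1 to 4 as replicates were left out in turn: 2 without replicate 1, 4 without replicate 2 and 1 without replicate 3. On ratios rebuilt from the mean foreground of each spot it was 2, ACVR1B higher and BMPR1A lower. There FST had an unadjusted p of 0.169 and BMPR2 of 0.052 in limma. With replicates left out in turn, INHA ran from -0.28 (without replicate 1) to 0.31 (without replicate 2), and FSTL3 from -0.12 (without replicate 3) to 0.95 (without replicate 1). On the arrays with FGF8 RNA in Cy5, INHA was -0.17, INHBB -0.15 and FSTL3 -0.012; on those with FGF8 RNA in Cy3, INHBA was -0.085, BMPR1B -0.10 and BMP1 0.40. MSTN, NBL1 and ID2 were 0.066, -0.34 and 0.26 without replicate 1, and BMP2 was 0.44 without replicate 2. Single orientations keep any dye effect; other causes were not tested.

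With all 6 arrays fitted and the replicate block as a random effect (consensus correlation 0.180), 0 members and 11 genes in all were called, against 0 genes in the original fit. The 6 arrays unblocked called 15 genes, the slide read from the file names as a random block 12, and the arrays with FGF8 RNA in Cy5 8. In each of these 4 fits 1 of the binding proteins and inhibitors, BAMBI, was called; the fits of 6 arrays draw their error from arrays, not from the 3 replicates. Replicates 2 and 3 appear to share a slide, so the values without replicate 1 are those within it. The count of members of 1 sign on all arrays, originally 3 (6% of all genes), was 2 where both RNAs had to be above the limit on all 6 arrays, without ACVR2B. It was 5, 5 and 3 on the 4 arrays left without replicates 1, 2 and 3, where 18.1, 22.1 and 15.3% of all genes had 1 sign. Each of these counts includes ACVR2B, whose sign carries no weight. The dye effects ran from 0 to 2 probes with replicates left out.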
